A study of Mus musculus with 29 samples.

Results

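Mt1 and Mt2 are the metallothionein genes that most tissues of the mouse express. Both were looked up by symbol in every deposited count table, and their levels were taken in each library and each cell type of the authors' coarser annotation. Both are listed among the 19704 genes of the young brain tables and the 27514 genes of the aged brain tables. Of the 16623 genes in the blood tables only Mt1 is one of the pair, and Mt2 in blood is not analysed here.

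The study profiled single cells by Drop-seq, in which a droplet joins each cell with a barcoded bead, in C57BL/6J mice. The middle cerebral artery was occluded for a time and reopened (stroke), or the mice had a sham operation. Males aged 8 to 10 weeks make up the young groups. In brain these are sham day 2, stroke day 2 and stroke day 14 with 4 libraries each, and in blood the same groups with 4, 4 and 3. The aged groups, at 17 to 20 months, are in brain only, with 1 male and 1 female library for sham day 2, 1 male and 2 female libraries for stroke day 2 and 1 female library for stroke day 14. Each brain library pooled 4 to 5 hemispheres, which were dissociated with papain in the presence of actinomycin D, Brilliant Blue G and AP-5, blockers of transcription, P2X7 receptors and NMDA receptors. Leukocytes high in CD45, microglia and endothelial cells were sorted from the suspension. Each blood library pooled 2 mice, with actinomycin D and Brilliant Blue G present and erythroid cells depleted with Ter-119. A sham group at day 14 is not among these groups, so both times after stroke were set against the day 2 sham libraries, and the comparisons share these controls.

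Metallothioneins are small cysteine-rich proteins that bind zinc and copper and can scavenge oxidants. Their transcription rises when free zinc activates the metal-responsive transcription factor MTF1, encoded by Mtf1, which binds short metal response elements in their promoters. Glucocorticoids, cytokines of the IL-6 family and oxidants are also known to raise them. In brain they are best known from astrocytes, which were outside the sorted gates here.

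Both genes lie on the plus strand of chromosome 8 in the mouse build GRCm38. In the GENCODE annotation Mt2 spans 94172664 to 94173568 and Mt1 spans 94179082 to 94180327, with 3 exons in the longest model of each and 5513 bases between them. Their brain paralogue Mt3 lies upstream at 94152607 to 94154146. The 250 bases before each RefSeq start (GRCm38.p6, plus strand, 5′ to 3′) are shown because the metal response elements in them are the sites through which zinc acts on these genes. Capitals mark matches on either strand to the core TGCACNC or TGCGCNC, at chr8:94178839-94179088 for Mt1 and chr8:94172368-94172617 for Mt2.
Mt1 promoter: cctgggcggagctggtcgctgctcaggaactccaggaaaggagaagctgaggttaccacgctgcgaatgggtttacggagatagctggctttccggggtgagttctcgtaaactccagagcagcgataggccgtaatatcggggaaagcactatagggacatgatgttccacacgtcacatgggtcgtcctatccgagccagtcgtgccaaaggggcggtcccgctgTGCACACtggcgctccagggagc
Mt2 promoter: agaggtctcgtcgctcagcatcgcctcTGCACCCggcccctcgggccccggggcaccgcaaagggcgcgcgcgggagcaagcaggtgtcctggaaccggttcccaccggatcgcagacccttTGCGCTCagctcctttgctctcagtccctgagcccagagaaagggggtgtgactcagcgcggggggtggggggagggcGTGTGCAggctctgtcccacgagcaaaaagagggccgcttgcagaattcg
The Mt1 window held 1 match, 23 to 17 bases before the start. The Mt2 window held 3, at 223 to 217, 128 to 122 and 50 to 44 bases before the start, the last on the minus strand. At least 1 match is found in 21.4% of 32851 RefSeq promoters of this length, and at least 3 in 1.26%. The windows depend on the annotated start. A shorter Mt1 transcript of GENCODE begins 122 bases downstream of the RefSeq start, and those 122 bases held 4 further matches, the nearest 24 to 18 bases before the shorter transcript. The glucocorticoid receptor palindrome (AGAACA and TGTTCT with 3 bases between) and the STAT palindrome TTCNNNGAA had no match in either window, against 0.00913% and 7.02% of promoters. The antioxidant response core TGACNNNGC had 1 match in Mt2 (10.2% of promoters), and the hypoxia response core ACGTG had 1 in Mt1 (16.6%). These are letters on the sequence, and binding was not measured.

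Depth set how finely the pair could be followed. Young brain libraries held 2648 to 5121 cells and 1318140 to 5855050 summed counts, and blood libraries 2360 to 6328 cells and 966914 to 5232660 counts. Levels are given as CPM, a gene's share of all counts summed over the cells of a type in a library, and libraries with under 20 cells of a type were left out. The library is the replicate, so a test measures the spread between pooled libraries. The marker list of each type described here was the highest of all lists in that type, apart from border-associated macrophages (BAM) and blood dendritic cells, where the monocyte list came first and their own second. One library stood apart from its label. Stroke day 2 replicate 3 held 58 microglia, whose microglial markers (7 genes such as P2ry12 and Tmem119) summed to 817 CPM, against 11707 to 13830 in the other day 2 libraries, while its monocyte markers summed to 4776 CPM against 908 to 1566. The microglial fold changes at day 2 are therefore also given without it, whereas the shares of cells and the gene lists include it. Median mitochondrial shares were under 1% in 5 of the 12 young brain libraries, 1 of sham and 2 at each time after stroke.

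Border-associated macrophages, the macrophages of meninges and perivascular spaces, held the highest Mt1 among the types with at least 6 young brain libraries, and endothelial cells the highest Mt2. Over the 12 young brain libraries Mt1 averaged 1614 ± 608 CPM (SD) in BAM and 756 ± 278 in endothelial cells. The difference within a library was 1.08 ± 0.59 (SD) on the log2(CPM + 1) scale, with BAM higher in 11 of 12 libraries (exact paired permutation test, adjusted p 0.0107 over 22 neighbouring pairs). Microglia (606 ± 341 CPM), dendritic cells (559 ± 381) and monocyte-derived cells (481 ± 237) followed, and no difference between these neighbours, or between endothelial cells and microglia, passed the threshold over all 12 libraries (adjusted p 0.393 to 0.981). These means pool the 3 groups, in which the order was not the same: dendritic cells exceeded microglia in 4 of 4 sham libraries and lay below them in 4 of 4 day 14 libraries. Monocyte-derived cells exceeded granulocytes (80.9 CPM) in 12 of 12 libraries (adjusted p 0.0107). B cells (59.8 CPM), T cells (34.1) and NK cells (28.6) came last, with no difference between neighbours past the threshold.

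The order for Mt2 was not the same. Endothelial cells averaged 338 ± 159 CPM of Mt2 and BAM 198 ± 200, a difference of 2.43 ± 3.24 (SD) on the log2(CPM + 1) scale, with endothelial cells higher in 10 of 12 libraries (exact paired permutation test, adjusted p 0.0376). In 3 of these libraries the BAM held no count of Mt2 (20, 52 and 65 cells), and with a pseudocount of 10 the difference was 1.60 (adjusted p 0.043). Dendritic cells (68.4 ± 83.9 CPM) and microglia (47.0 ± 32.9) showed no difference from their neighbours above over all 12 libraries that passed the threshold (adjusted p 0.516 and 0.753). Here too the groups differed in direction, with dendritic cells above microglia in 4 of 4 sham libraries and below them in all 8 libraries after stroke. Microglia exceeded monocyte-derived cells (13.5 ± 14.5 CPM) in 11 of 12 libraries (adjusted p 0.0179). Mt2 was near or at 0 in lymphocytes, and no B cell library held a count. The epithelial cells of 1 sham library (23 cells), whose epithelial and astrocyte marker lists were both high, held 3172 CPM of Mt1, 641 of Mt2 and 2317 of Mt3, whereas Mt3 was at most 38.3 CPM in every other type. In blood Mt1 was low. Monocytes held 67.5 ± 36.2 CPM (11 libraries), dendritic cells 59.3 (6 libraries), neutrophils 5.84 and NK, T and B cells 0.563 to 1.99, and no pair of neighbours passed the threshold (adjusted p 0.393 to 0.516). The pairs with dendritic cells rest on 6 libraries, where the smallest possible p is 0.0312 before adjustment, so they could hardly pass.

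**Figure D1:**
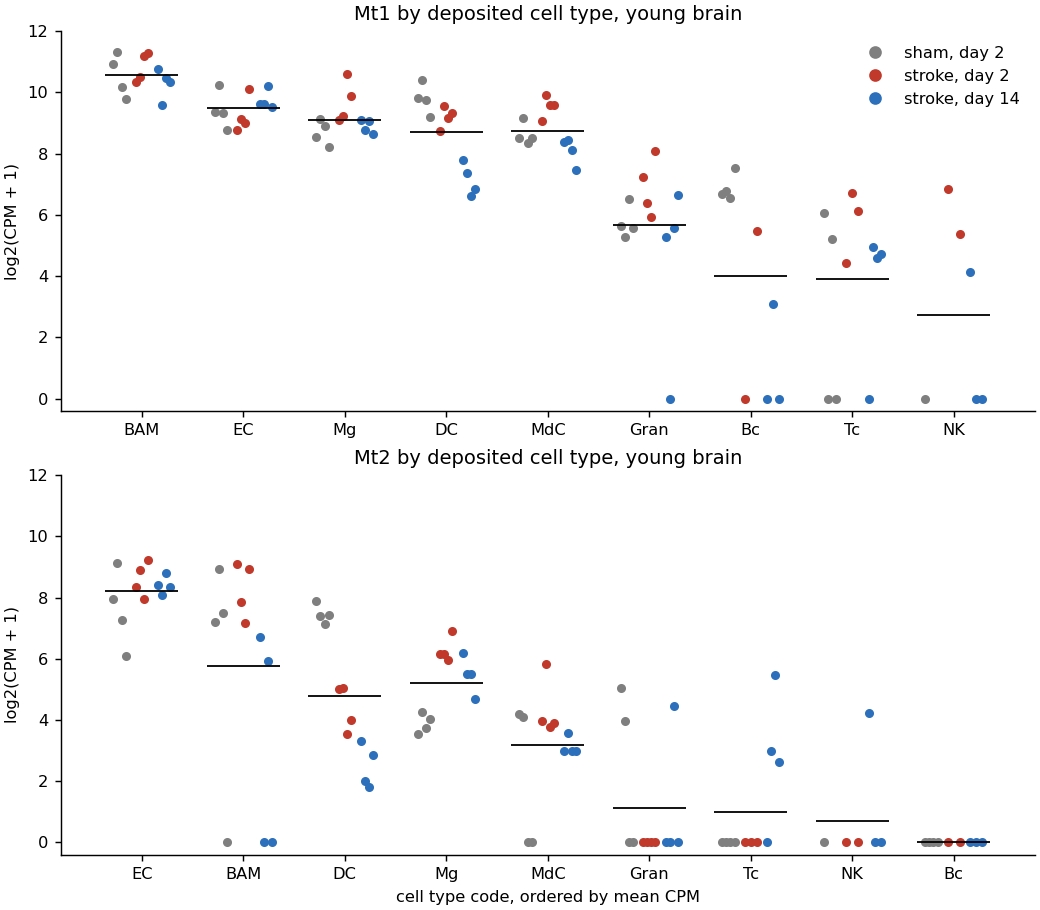
Level of Mt1 (top) and Mt2 (bottom) by cell type as log2(CPM + 1), 1 point per young brain library, coloured by sham (grey), stroke day 2 (red) and stroke day 14 (blue), with a line at the mean. Among these types, each with at least 6 libraries, border-associated macrophages have the highest mean Mt1 and endothelial cells the highest mean Mt2.

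In microglia, the resident macrophages of the brain, both genes were higher at day 2 after stroke, and Mt2 also at day 14. The fold of Mt2 at day 2 was the larger, but the change of the ratio between the genes within libraries missed the threshold (exact permutation test, adjusted p 0.129). Mt2 was at 10.8, 18.3, 12.4 and 15.4 CPM in the sham libraries. It was at 69.9, 70.7, 60.8 and 119 CPM at day 2 and at 72.6, 44.8, 44.4 and 25.0 CPM at day 14. Every library after stroke lay above every sham library. The log2 fold change against sham was 2.77 ± 0.37 (SE, edgeR adjusted p 0.000211, 6.81-fold) at day 2 and 2.17 ± 0.36 (adjusted p 0.00125, 4.49-fold) at day 14. The 2 times did not differ beyond the spread (day 14 minus day 2 -0.60 ± 0.34, 95% interval -1.34 to 0.14, adjusted p 0.341). Single omissions gave -0.88 to -0.24, and the libraries of higher mitochondrial share alone gave a called fall of -1.53 (edgeR adjusted p 0.0174). These values rest on 81.1 counts of Mt2 over the sham libraries, 442 at day 2 and 310 at day 14. Leaving out any 1 library kept both calls of Mt2.

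Mt1 in microglia was at 371, 558, 478 and 298 CPM in sham, at 545, 601, 1564 and 934 CPM at day 2 and at 546, 438, 539 and 397 CPM at day 14. The lowest library at day 2 lay below the second sham library, so the groups overlapped. The log2 fold change at day 2 was 1.09 ± 0.31 (edgeR adjusted p 0.0192, 2.13-fold). At day 14 it was 0.62 ± 0.31 (95% interval -0.04 to 1.28, adjusted p 0.177), and day 14 minus day 2 was -0.47 ± 0.31 (adjusted p 0.417). In these fits 31.4% of 10145 genes were called at day 2 and 15.2% at day 14 against sham, and 6.93% between the times, with 15.7% and 10.6% called as higher against sham. The highest Mt1 value, 1564 CPM, belongs to the library of 58 cells. Without it Mt1 changed by 0.89 at day 2 (adjusted p 0.046) and Mt2 by 2.81. The Mt1 call was lost without sham replicate 1 (0.97, adjusted p 0.052), without day 2 replicate 4 (0.93, adjusted p 0.071) and when counts were rounded up per cell (0.69, adjusted p 0.145).

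**Figure D2:**
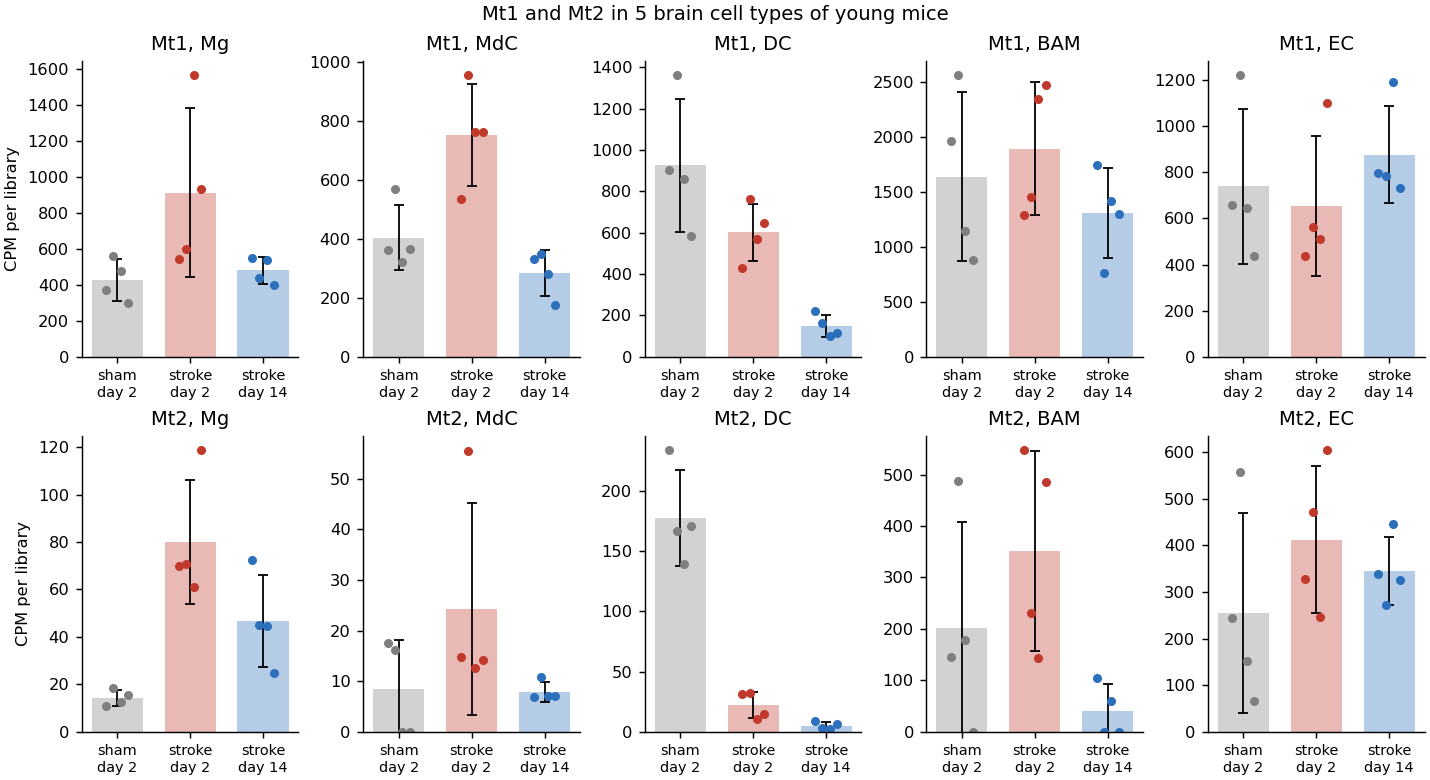
CPM of Mt1 (top) and Mt2 (bottom) in microglia (Mg), monocyte-derived cells (MdC), dendritic cells (DC), border-associated macrophages (BAM) and endothelial cells (EC) of young brain. Points are libraries, bars are group means and error bars SD; microglial Mt2 after stroke and dendritic Mt1 and Mt2 at day 14 lie apart from sham.

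The share of microglia with a count of either gene was higher in every day 2 library than in any sham library. For these shares counts were rounded up per cell, so any fraction of a count made a cell positive. Thinned to 500 counts per cell, which left out 5557 of 10874 sham, 693 of 2693 day 2 and 1847 of 5170 day 14 microglia, cells with a count of Mt2 made up 0.439% to 1.31% per library in sham, 3.10% to 5.39% at day 2 and 1.27% to 2.52% at day 14. Unthinned, the shares were 0.677% to 1.52%, 4.91% to 25.9% and 1.60% to 7.96%, at median depths of 330 to 648, 338 to 1489 and 433 to 2042 counts. The 25.9% belongs to the library of 58 microglia, which held 1.60 counts of Mt2 in all, so its positive cells carried mostly fractions. Brain T cells, a type of very low metallothionein, had thinned Mt2 shares of 0%, 0% and at most 1.16% in the same groups (median depths 265 to 415, 343 to 724 and 359 to 1055), and the day 14 range of microglia lay just above this level. For Mt1 the thinned shares in microglia were 13.1% to 21.1%, 21.4% to 30.4% and 16.3% to 19.7%.

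The rise of microglial Mt2 at day 2 was uneven over the finer annotation, which was built from all genes and so serves as description only. Subtype Mg4 went from 1.14% of sham to 38.4% of day 2 microglia and held 193 CPM of Mt2 at day 2 (95% counting interval 172 to 216, 1034 cells) and 1114 CPM of Mt1. The 52 Mg4 cells at day 14 pooled to 100.1 CPM of Mt2 (24.4 to 229), and the 20 of them in replicate 2 were at 276 CPM. Subtype Mg5 went from 1.07% to 33.8% and held 61.3 CPM of Mt2 (51.1 to 72.7). Subtype Mg1, 53.6% of sham and 12.4% of day 2 microglia, held 10.9 and 18.0 CPM of Mt2, and its Mt1 was 282 and 313 CPM. At day 14 most microglia were of subtype Mg3 (3415 of 5170 cells), at 54.4 CPM of Mt2 and 494 CPM of Mt1. Intervals here cover counting error only.

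Values that moved with these groups are given beside them, and their part in the result was not tested. The microglial markers summed to 15661 to 22898 CPM in sham and to 10785 to 14998 CPM at day 14, below every sham library, and the monocyte markers to 313 to 462 CPM in sham and 2238 to 3281 CPM at day 14. The astrocyte markers (8 genes measured) summed to 204 to 223 CPM in sham microglia, 25.8 to 74.2 at day 2 and 47.9 to 107 at day 14. Nearly all of this sum was the glutamate transporter gene Slc1a3 (pooled 205, 46.5 and 73.4 CPM). Gfap, a defining astrocyte marker, went from 0 to 0.466 and 0.694 CPM, and Aldh1l1 was at 0 in sham and 0.411 CPM at day 2. Leaving out cells with astrocyte transcripts changed no call. In every young library after stroke, monocyte-derived cells held less Mt2 than microglia.

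**Figure D3:**
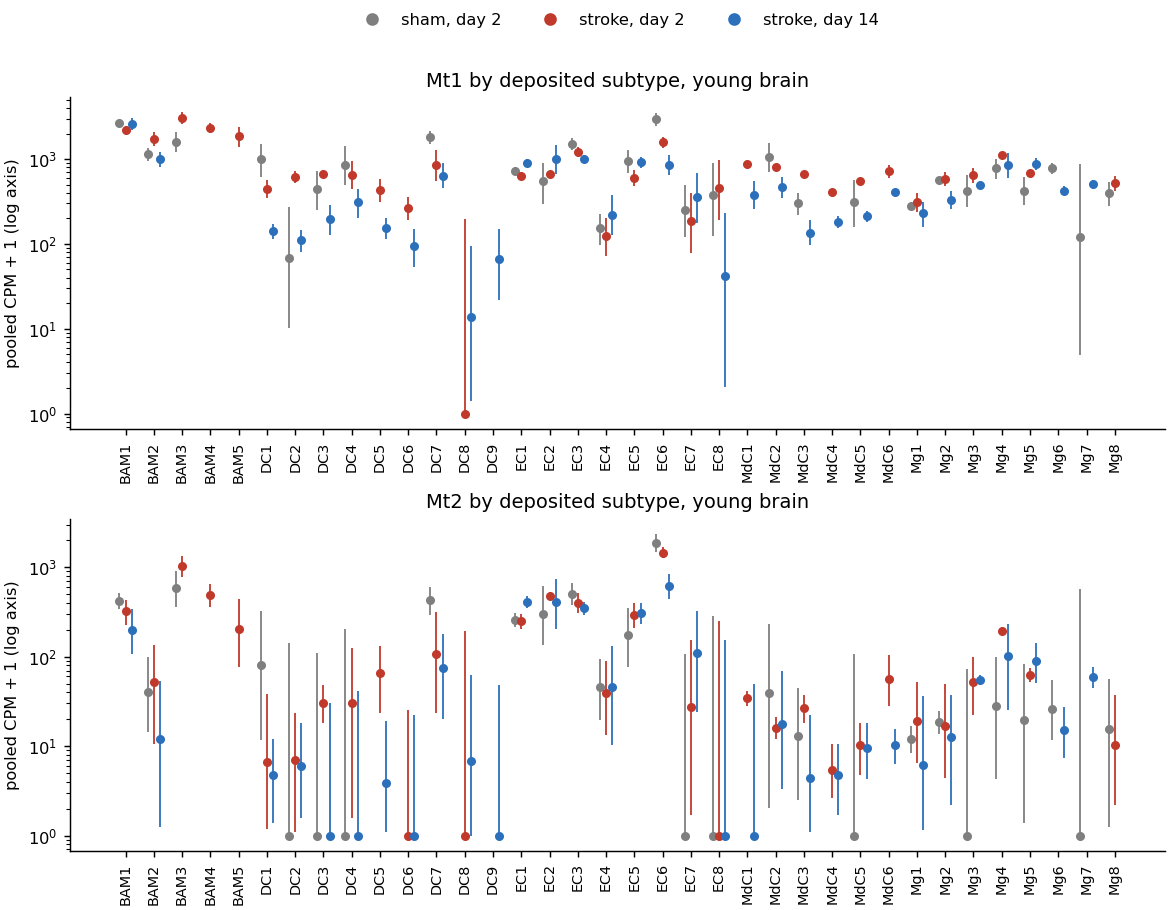
Pooled level (CPM + 1, log axis) of Mt1 and Mt2 in the deposited subtypes with at least 20 cells in a group, by sham, stroke day 2 and stroke day 14, with exact Poisson 95% intervals. Mg4 at day 2 has the highest pooled Mt2 of the microglial subtypes (193 CPM), and DC7 and EC6 stand high within their types.

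Monocyte-derived cells (MdC), which enter the brain from blood, had a transient Mt1 peak. Mt1 was at 361, 569, 322 and 366 CPM in sham. It was at 534, 956, 762 and 763 CPM at day 2 and at 333, 349, 280 and 176 CPM at day 14. All day 2 libraries lay above all day 14 libraries, while 1 of them lay below the highest sham library. Day 2 minus sham was 1.35 ± 0.32 (edgeR adjusted p 0.0212, 2.54-fold), where 6.71% of 8080 genes were called, 5.66% as higher, and the median of all genes was 0.29. Day 14 minus day 2 was -1.45 ± 0.30 (adjusted p 0.0209, 2.73-fold lower), where 1.79% of genes were called and 0.965% as lower. Day 14 minus sham was -0.10 ± 0.32 (95% interval -0.79 to 0.58, adjusted p 0.943), with 5.15% of genes called.

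Both calls were fragile. The sham libraries held 43 to 99 MdC each, against 489 to 2180 after stroke. Leaving out 1 library ended the day 2 call for 5 of 8 libraries (sham replicates 1 and 3, day 2 replicates 2, 3 and 4; over all 8 omissions 1.16 to 1.76, adjusted p 0.0152 to 0.0693), and the call was also lost by library size without TMM scaling (0.89) and in the libraries of higher mitochondrial share alone (1.27, adjusted p 0.0601). Between the times it ended for 5 of 8 libraries, namely day 2 replicates 3 and 4 and day 14 replicates 1, 3 and 4 (over all 8 omissions -1.60 to -1.34, adjusted p 0.0250 to 0.0839). Mt2 was low here, at 0 to 17.5 CPM in sham, 12.6 to 55.6 at day 2 and 6.87 to 10.8 at day 14. Day 14 lay wholly below day 2 and missed the threshold (-1.66 ± 0.53, adjusted p 0.165), as did day 2 minus sham (1.32 ± 0.85, adjusted p 0.454). By subtype, Mt1 pooled to 659 CPM at day 2 and 300 CPM in sham in MdC3, which made up 76.4% of sham and 14.7% of day 2 MdC. MdC1, 31.4% of day 2 cells, held 879 CPM.

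Brain dendritic cells moved the other way. These antigen-presenting cells held Mt2 at 234, 166, 140 and 171 CPM in sham. The day 2 libraries were at 31.3, 32.3, 10.6 and 14.9 CPM and the day 14 libraries at 8.90, 2.98, 2.49 and 6.18 CPM. No library of one group reached the range of another. Mt2 fell by 2.99 ± 0.42 on the log2 scale at day 2 (edgeR adjusted p 0.00466, 7.94-fold lower) and by 5.03 ± 0.48 at day 14 (adjusted p 0.000184, 32.7-fold lower). Of the genes tested in these cells 1.01% and 1.53% were called, 0.321% and 0.504% as lower. The further difference of -2.04 ± 0.49 between the times missed the threshold (adjusted p 0.0623) and was past it with DESeq2 (-2.12, adjusted p 0.0423) and with low mitochondrial share as a batch term (-1.99, edgeR adjusted p 0.0296).

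Mt1 in dendritic cells was at 901, 1362, 858 and 586 CPM in sham, at 431, 761, 571 and 645 CPM at day 2 and at 220, 163, 97.7 and 114 CPM at day 14. Sham and day 2 overlapped, and day 14 lay below both. The log2 fold change was -0.63 ± 0.36 at day 2 (95% interval -1.40 to 0.13, edgeR adjusted p 0.432), -2.62 ± 0.38 at day 14 against sham (adjusted p 0.0074, 6.13-fold lower) and -1.98 ± 0.36 between the times (adjusted p 0.0248, 3.95-fold lower), where 0.893% of genes were called, 0.458% as lower. Between the times, the call ended for 4 of the 8 single omissions, those of day 2 replicates 1 and 4 and of day 14 replicates 3 and 4 (-2.26 to -1.79 over all omissions, adjusted p 0.0321 to 0.0954).

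The makeup of the dendritic cells changed as well, and it had done so by day 2. Subtype DC7 was 26.1% of the 284 sham cells, 1.56% at day 2 and 2.34% at day 14, and held the most Mt1 in sham (1820 CPM pooled, against 1000 in DC1 and 439 in DC3) and 424 CPM of Mt2. Of 8 dendritic markers, DC7 cells had more Cd209a (2532 CPM against 537 in the other dendritic cells) and H2-Aa (14903 against 11888) and less of the other 6, such as Ccr7 (36.6 against 465) and Flt3 (92.6 against 195). Of 6 BAM markers they had more Mrc1 (400 against 37.9) and Cd163 (23.5 against 3.32), about the same Pf4 (6.11 against 5.33) and less F13a1 (17.8 against 30.6), with Lyve1 and Cbr2 at 0. The summed BAM markers of all dendritic cells went from 331 to 689 CPM in sham to 83.0 to 124 at day 2 and 26.2 to 101 at day 14. Without DC7, an alternative chosen after seeing the data, Mt1 changed by 0.40 at day 2, by -1.69 at day 14 against sham (adjusted p 0.166) and by -2.09 between the times (adjusted p 0.0498), and Mt2 no longer passed the filter on low counts. Within subtypes pooled Mt1 at day 14 was 139 CPM in DC1, 195 in DC3 and 638 in DC7, each below its sham level. How much of the falls goes with the makeup and how much with levels within subtypes was not tested.

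BAM showed no call by edgeR with the filter on low counts. Mt1 was at 1962, 2566, 1147 and 883 CPM in sham, 1294, 1460, 2348 and 2478 at day 2 and 1747, 766, 1421 and 1299 at day 14. The groups overlapped throughout (day 2 minus sham 0.18 ± 0.39, edgeR adjusted p 0.791; day 14 minus sham -0.29 ± 0.39, adjusted p 0.965), where 2.67% and 0.0762% of genes were called. Mt2 ranged from 0 to 488 CPM in sham, from 143 to 547 at day 2 and from 0 to 105 at day 14, and day 14 minus day 2 was -2.40 ± 0.74 (adjusted p 0.146; 0.838% of genes called), with no overlap of libraries. Without the filter this fall was called (-2.59, edgeR adjusted p 0.0211). Libraries held 20 to 282 BAM. Pooled by subtype in sham, Mt2 was 420 CPM in BAM1 and 587 in BAM3 but 39.0 in BAM2 (13.5 to 97.3), and BAM2 held 1146 CPM of Mt1.

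Endothelial cells, which line the vessels of the brain, showed no call for either gene. Mt1 was at 659, 1222, 644 and 436 CPM in sham, 436, 563, 511 and 1102 at day 2 and 796, 785, 1190 and 734 at day 14. Mt2 was at 245, 557, 152 and 66.6 CPM in sham, 328, 472, 246 and 604 at day 2 and 339, 272, 446 and 326 at day 14. For Mt1, day 2 minus sham was -0.11 ± 0.35 (95% interval -0.85 to 0.64, edgeR adjusted p 0.867), and for Mt2 it was 0.70 ± 0.44 (-0.24 to 1.63, adjusted p 0.298), where 13.3% of genes were called. At day 14 against sham the changes were 0.20 ± 0.35 and 0.32 ± 0.45, and edgeR called 0 genes of any kind (DESeq2 called 9, and 356 had an unadjusted p under 0.05). Single omissions moved these 2 changes to 0.0204 to 0.617 for Mt1 and 0.0547 to 1.11 for Mt2. The spread within sham was wide for Mt2, and sham replicate 2 decided its day 2 value: without it the change was 1.49 (adjusted p 0.0400). Subtype EC6, 3.93% to 5.06% of endothelial cells, pooled to 1873, 1459 and 610 CPM of Mt2 in sham, at day 2 and at day 14, while EC4 stayed at 38.0 to 44.7 CPM.

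The zinc exporter Slc30a1, another target of MTF1, did change in endothelial cells. It was at 274 to 389 CPM in sham and 56.6 to 144 CPM at day 2, with no overlap (log2 fold change -1.44 ± 0.26, edgeR adjusted p 0.00352). At day 14 it was at 208 to 353 CPM, higher than at day 2 by 1.19 ± 0.26 (adjusted p 0.00904; 11.2% of genes called). The zinc importer Slc39a10 followed the same course, -1.31 ± 0.22 at day 2 against sham and 1.13 ± 0.22 from day 2 to day 14. Mtf1 itself was at 25.3, 39.5 and 32.2 CPM on average in endothelial cells and at 29.5, 19.4 and 17.4 CPM in microglia of sham, day 2 and day 14, and was not called against sham in either.

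The number of Mt2 counts per 100 Mt1 counts was compared within libraries, as a change of the ratio only. How reads that match both paralogues were counted is not given in the sources used here, so the ratio itself is uncertain. In endothelial cells it was 15.3% to 45.6% in sham, 48.2% to 83.9% at day 2 and 34.6% to 44.5% at day 14, and no day 2 library overlapped either other group. In microglia it was 2.60% to 5.16%, 3.89% to 12.8% and 6.29% to 13.3%, with day 14 apart from sham. The 3.89% belongs to day 2 replicate 3, the library of 58 microglia (1.60 counts of Mt2), and the other day 2 libraries were at 11.8% to 12.8%. The log2 ratio differed by 1.16 ± 0.38 in endothelial cells at day 2 against sham, by 1.42 ± 0.31 in microglia at day 14 against sham and by -0.69 ± 0.21 in endothelial cells at day 14 against day 2. Each has the smallest p that an exact permutation test of 4 against 4 libraries can give (0.0286), and none passed after adjustment over 9 tests (adjusted p 0.0857). Microglia at day 2 against sham gave 1.53 ± 0.39 (exact permutation p 0.0571, adjusted p 0.129). In MdC the ratio was 0% to 4.84% in sham, 1.66% to 5.81% at day 2 and 2.06% to 3.96% at day 14.

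**Figure D4:**
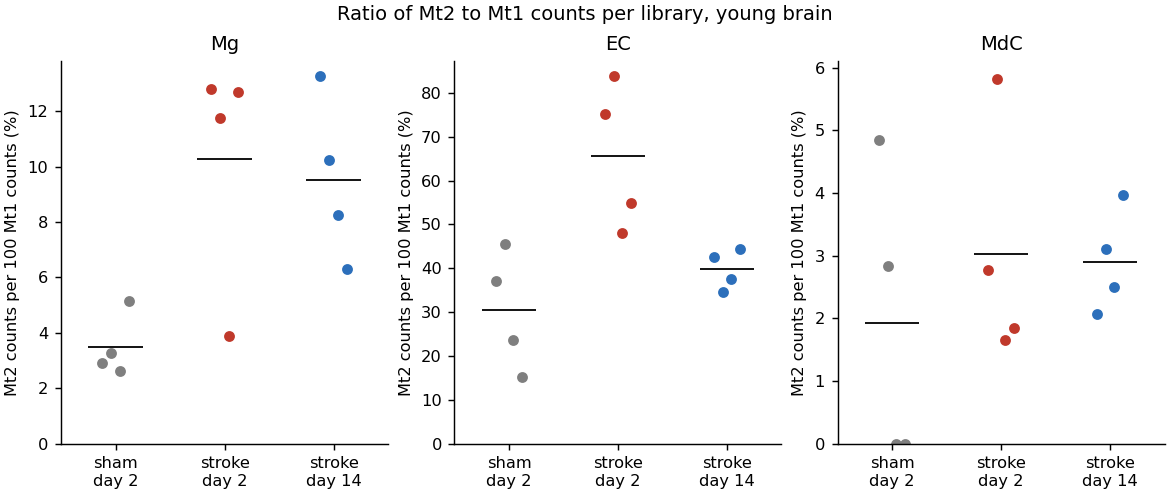
Mt2 counts per 100 Mt1 counts in microglia, endothelial cells and monocyte-derived cells, 1 point per young brain library with a line at the group mean. All 4 endothelial libraries at day 2 lie between 48.2 and 83.9, above the sham and day 14 libraries.

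The remaining brain types had few counts or few cells and were not tested. Granulocytes, mostly neutrophils by their markers, pooled to 52.6 CPM of Mt1 in sham (95% counting interval 28.9 to 85.2), 176 at day 2 (121 to 246) and 54.9 at day 14 (25.1 to 104). Their libraries overlapped, with the lowest at day 2 (59.6 CPM) below the highest in sham and the highest at day 2 at 272 CPM. Oligodendrocytes, the myelin-forming cells, pooled to 1379, 2216 and 567 CPM of Mt1 over 27, 17 and 27 cells. Mural cells, the contractile cells around vessels, were at 278 and 465 CPM of Mt1 in 2 sham libraries and 233 CPM in 1 day 2 library.

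In aged brain the same types carried the genes, and 1 library led each of them. Microglial Mt2 was at 0 CPM in the female and 33.7 CPM in the male sham library, at 100, 344 and 43.9 CPM in the 3 stroke libraries of day 2 and at 63.7 CPM in the day 14 library. Microglial Mt1 was at 317 and 454 CPM in sham, 682, 1095 and 410 CPM at day 2 and 649 CPM at day 14. All stroke libraries lay above sham for Mt2 (4.17 ± 1.11, edgeR adjusted p 0.0618), and Mt1 overlapped (0.99 ± 0.47, adjusted p 0.308), where 2.3% of genes were called. The Mt2 value was past the threshold under 6 of 12 alternatives. These were DESeq2 (3.34, adjusted p 0.0267), sex as a covariate (4.67, adjusted p 0.00848), no filter (4.17, adjusted p 0.000123), counts rounded up (3.69, adjusted p 0.0317), cells of high count left out (5.24, adjusted p 0.0145) and the fit without female stroke replicate 2 (4.63, adjusted p 0.0309). A further fit, without the male sham library, left 1 sham library with no count of Mt2, so its fold cannot be read. Aged dendritic cells were not tested. Their Mt2 was at 75.0 CPM in the female sham library (24 cells). At stroke day 2 it was at 8.52 and 76.2 CPM in the female libraries and 159 CPM in the male library. The day 14 library (88 cells) held no count of Mt2. The sham value rests on 0.999 counts, so whether aged dendritic cells share the fall of the young libraries cannot be read.

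The male stroke library was the highest for both genes in microglia, endothelial cells and MdC. In endothelial cells it held 3179 CPM of Mt1 and 3278 of Mt2, against 705 and 725 of Mt1 and 681 and 842 of Mt2 in the female stroke libraries and 879 to 1406 of Mt1 and 421 to 823 of Mt2 in sham. In MdC it held 1869 CPM of Mt1 and 170 of Mt2, against 191 and 1049 of Mt1 and 0 and 70.0 of Mt2 in sham. Female stroke replicate 2 also lay above both sham libraries for both genes in MdC (118 CPM of Mt2). Female stroke replicate 1 lay between them (16.4 CPM of Mt2). With 1 male library after stroke, sex and this library cannot be told apart. Stroke minus sham was not called in aged endothelial cells (0.53 ± 0.64 for Mt1 and 1.47 ± 0.76 for Mt2, edgeR adjusted p 0.814 and 0.469; 0.606% of genes called) or MdC (1.68 ± 0.60 and 2.34 ± 1.37, adjusted p 0.153 and 0.403; 2.56%). Without the filter the calls were gained for endothelial Mt2 (1.47, adjusted p 0.0155) and MdC Mt1 (1.90, adjusted p 0.0196), and sex as a covariate gained that of MdC Mt1 too (2.16, adjusted p 0.0488). Without the male stroke library the endothelial change of Mt1 was -0.64. The difference between the stroke effects at both ages was -0.09 ± 0.57 for Mt1 and 1.33 ± 1.32 for Mt2 in microglia and was called for neither gene in any of the 3 types. In that comparison edgeR called 0 genes of any kind in microglia, endothelial cells and MdC (1, 0 and 3 by DESeq2, with 623, 356 and 473 at a p under 0.05 before adjustment). Aged and young stroke libraries did not overlap for endothelial Mt2 (1.95 ± 0.59, edgeR adjusted p 0.464), where edgeR called 0 of 6604 genes (5 higher and 2 lower by DESeq2, with 504 at a p under 0.05 before adjustment), and edgeR called neither gene between ages in sham (0.018% of genes called in microglia) or in stroke. Without the filter on low counts, aged minus young stroke was called for Mt1 and Mt2 in endothelial cells (1.15, edgeR adjusted p 0.0282, and 1.88, adjusted p 1.75e-07) and for Mt2 in MdC (2.12, adjusted p 0.0033). The unfiltered fits use the same libraries. Endothelial Mt2 hardly moved from its filtered folds (1.95 here and 1.47 for stroke minus sham), and microglial Mt2 above likewise kept its fold. Their gained calls therefore depend on the filter and not on a larger difference. The MdC value of Mt2 was also called without young stroke day 2 replicate 2 (2.89, adjusted p 0.0168). All young libraries are male and the aged groups hold both sexes, so sex is unbalanced between the ages. The aged tables also list 27514 genes against 19704, and age cannot be told apart from such differences between the tables.

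Blood monocytes, the circulating precursors of MdC, had less Mt1 at day 14. Libraries were at 93.1, 81.9, 74.7 and 51.8 CPM in sham, 128, 80.9, 102 and 71.1 CPM at day 2 and 27.1, 13.8 and 18.1 CPM at day 14. The day 14 libraries lay below all others, while sham and day 2 overlapped. Day 14 minus sham was -1.96 ± 0.33 (edgeR adjusted p 0.016, 3.88-fold lower) and day 14 minus day 2 was -2.34 ± 0.33 (adjusted p 0.00253, 5.08-fold lower), where 0.254% and 0.537% of genes were called, 0.149% and 0.447% as lower. Day 2 minus sham was 0.39 ± 0.26 (95% interval -0.17 to 0.95), and edgeR called 0 genes there (DESeq2 called 0, and 189 had an unadjusted p under 0.05). In blood dendritic cells Mt1 gave -2.64 ± 1.22 at day 14 against sham (adjusted p 0.47; 1.48% of genes called). The monocyte call against sham was lost without day 14 replicate 2 (-1.72, adjusted p 0.181) or replicate 3 (-1.89, adjusted p 0.111).

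Monocyte subtypes shifted alongside. Subtype Mo2, which held more F13a1 (2271 CPM against 922 in the other monocytes), Ccr2 (3676 against 2219) and Fn1 (498 against 141) and less Plac8 (3337 against 3768), made up 35.7% of sham, 54.6% of day 2 and 2.42% of day 14 monocytes. It carried 139 CPM of Mt1 in sham and 141 at day 2 (95% counting intervals 113 to 167 and 117 to 168), whereas Mo1 carried 40.7 and 74.9 CPM. At day 14 every monocyte subtype pooled below its sham level, on few counts. Mo1 was then at 26.6 CPM (16.6 to 41.1) and the 57 cells of Mo2 at 59.1 CPM (7.17 to 214). Without Mo2, an alternative added after seeing the data, monocyte Mt1 changed by -1.09 at day 14 against sham and by -1.25 against day 2, and neither was called (adjusted p 1.00 for both).

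Neutrophil Mt1 lay below the filter for testing, and in CPM every day 2 library still exceeded every sham library. The shares of neutrophils with a count, rounded up per cell and unthinned, overlapped (0% to 0.222% in sham and 0.177% to 1.49% at day 2). Among the 4944 genes that passed the filter edgeR and DESeq2 each called 0 in this comparison (209 by edgeR at a p under 0.05 before adjustment). The 4 sham libraries held 1.43, 0.786, 1.39 and 0 CPM, and the 4 day 2 libraries 21.2, 31.8, 3.56 and 4.09 CPM, without overlap (exact two-sided permutation p 0.0286, the smallest possible). Pooled, sham held 5 counts (1.25 CPM, 95% counting interval 0.389 to 2.79) and day 2 held 89 counts (interval 12.1 to 18.5 CPM), a ratio of 12.6 (5.19 to 39.7). Leaving out 1 library gave ratios of 7.32 to 18.1. At day 14 the rounded counts were 0 in all 3 libraries, so day 2 was at least 6.55-fold higher than the floor of 3 counts over the day 14 group. Subtype Neu1, 30.4% of sham and 47.3% of day 2 neutrophils, held 1.54 and 23.8 CPM. At day 14, 72.2% of neutrophils were of subtype Neu3, which made up 5.23% of sham and 5.70% of day 2. Blood T cells pooled to 0.446, 3.77 and 0.878 CPM of Mt1 in sham, at day 2 and at day 14 (1, 5 and 1 counts). B cells (0.665 and 0.233 CPM) and NK cells (3.74 and 0 CPM) were not higher at day 2 than in sham.

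**Figure D5:**
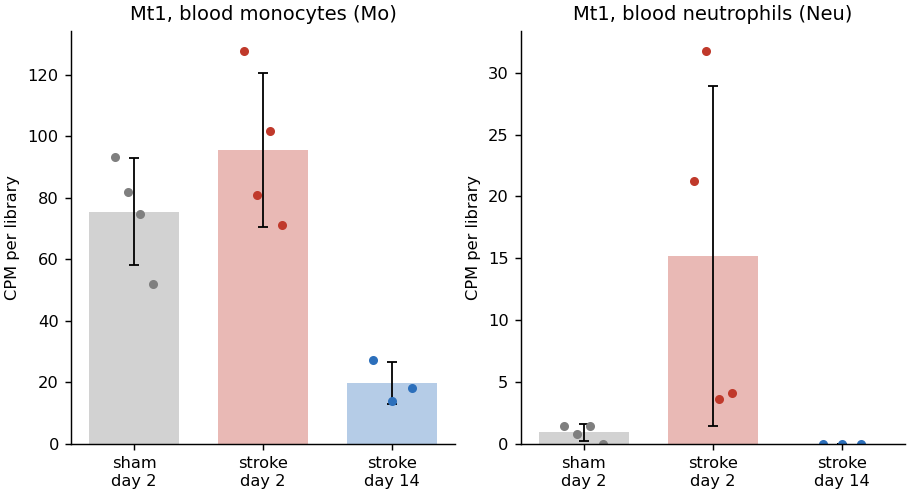
Mt1 CPM in blood monocytes (left) and neutrophils (right) of young mice, 1 point per library, bars at the mean and error bars SD. Monocytes at day 14 lie at 13.8 to 27.1 CPM, below all others, and neutrophils at day 2 lie above all sham libraries.

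Genes that handle zinc and copper were called for a minority of their list. In microglia at day 2, 5 of 27 tested genes were higher and 0 lower, with a list median of 0.34 against -0.05 for all genes. That share is near the 15.7% of all genes called higher, as the 3 of 27 at day 14 are near 10.6%. They included the zinc importer Slc39a14 (2.42 ± 0.42), which moves zinc into cells in inflammation, the copper chaperone Atox1 (1.60 ± 0.27) and Commd1 (1.42 ± 0.20), a factor of copper export. At day 14, 3 of 27 were higher (Atox1 1.56, Cox17 0.92, Commd1 0.73), and Slc39a14 was lower than at day 2 by -1.91 ± 0.41. In MdC Slc39a14 was the 1 gene of 22 called at day 2 against sham (3.54 ± 0.73, and 0 genes by DESeq2), a share near the 5.66% of all genes called higher. Slc39a14 was lower at day 14 than at day 2 (-3.48 ± 0.40), where 0.965% of all genes were called lower. In endothelial cells 0 of 15 were higher and 2 lower at day 2, beside 402 and 376 of all 5833 genes. In dendritic cells and blood monocytes none of the 6 and 16 tested genes was called by edgeR, where few genes were called at all (at most 1.53% and 0.537%). Without TMM scaling the microglial counts were 4 higher and 1 lower at day 2 and 1 higher and 1 lower at day 14, where the list median turned to -0.26 and that of all genes to -0.49.

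The lists of known inducers of metallothioneins differed among themselves. Their counts in microglia stand beside 1588 genes called higher and 1594 lower of all 10145 at day 2 (15.7% higher), and 1071 and 473 at day 14 (10.6% higher). Of 10 glucocorticoid-responsive genes tested in microglia, 6 were lower and 0 higher at day 2 (median -1.85), among them Sult1a1 (-2.79), Errfi1 (-2.40) and Ddit4 (-2.05), and 3 were lower at day 14. Of 9 targets of the oxidant sensor NRF2, 4 were higher at day 2 (median 0.81), led by the thioredoxin gene Txn1 (2.59), Prdx1 (2.48) and the haem oxygenase gene Hmox1 (2.15), and 3 at day 14. Of 10 hypoxia genes 4 were higher at day 2 (Pgk1 2.51, Ldha 2.36, Hilpda 1.59) and 5 at day 14, with Egln3 at 5.57. Of 12 genes of the IL-6 family and STAT3 response, 2 were higher and 2 lower at day 2 (median -0.01), a share near that of all genes in each direction. With DESeq2 the day 2 counts higher and lower were 0 and 8 for glucocorticoid, 3 and 2 for NRF2, 3 and 1 for hypoxia and 0 and 4 for IL-6 genes. Without TMM scaling the day 14 counts were 0 and 6 for glucocorticoid, 1 and 2 for NRF2 and 4 and 0 for hypoxia genes. The counts over all genes above are those of edgeR with TMM and do not carry over to these 2 alternatives.

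In MdC at day 2, 5 of 12 NRF2 genes and 6 of 11 hypoxia genes were higher and 0 lower (medians 1.26 and 1.44, all genes 0.29), beside 5.66% of all genes called higher, including Prdx1 (2.03 ± 0.33) and Hilpda (3.02 ± 0.55), and glucocorticoid genes split 1 and 1. Without TMM scaling 2 genes of each of the former lists were called. In endothelial cells at day 2, 4 of 7 NRF2 genes were higher (402 of all 5833 genes), among them Txn1 (1.19) and Prdx1 (1.14), while Mt1 and Mt2 were not called. At day 14 against sham edgeR called 0 genes of these lists in endothelial cells, and DESeq2 called 1, a lower glucocorticoid-responsive gene. Of 11 IL-6 genes tested in blood monocytes the STAT3 target Lcn2 alone was called, lower at day 14 against sham and against day 2, beside 10 and 30 of all 6706 genes called lower.

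Genes whose level followed each metallothionein were ranked by Pearson r of log2(CPM + 1) over 102 units, each a cell type in a young brain library, across 11 types and 6893 genes. The units share libraries and types, so r is a description. Among the closest to Mt1 were the lectin receptor gene Cd302 (0.79), the endocytic adaptor Dab2 (0.72), the syndecan Sdc3 (0.71) and Smagp (0.70). Closest to Mt2 were S100a1 (0.76), 2810025M15Rik (0.74), Parvb (0.74), Selenom (0.72) and Lima1 (0.70). Mt1 and Mt2 correlated with each other at 0.66, the 17th closest gene for both. After subtraction of each type's mean their r was 0.21, and Mt2 ranked 795 for Mt1. The closest genes were then Plekhf2 (0.55), Ndufb10 (0.52), Mrpl55 (0.51), Atp6v0b (0.51) and Arhgap18 (0.48) for Mt1, and Ddx39 (0.63), Cd163 (0.55), Ebp (0.53), Fblim1 (0.51) and Dok2 (0.48) for Mt2.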

How the data were processed

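Drop-seq libraries of mouse brain and blood were read as 1 table per library. The deposited tables hold expected counts per gene and cell, which are not whole numbers. Per the file headers, the authors' metadata add total counts, detected genes as a count, mitochondrial reads as a percent, and cell type codes at 2 levels. The submitters' processing notes name Seurat and mm10; the aligner, the origin of the fractions and the counting of reads that match both paralogues are not given in the sources used here. Every deposited cell was kept and no doublet caller was run.

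Counts were summed per library and type (at least 20 cells), rounded, and fitted with edgeR 4.0.16 (quasi-likelihood, TMM, filterByExpr, 3 groups together; day 2 groups of both ages together), two-sided, with Benjamini-Hochberg adjustment over all genes tested and calls at 0.05. Scripts were tested on simulated data. CPM divides by all counts of the type. Neighbouring types were compared by exact paired sign flips of log2(CPM + 1), and the log2 ratio of Mt2 to Mt1 (0.5 counts added) by exact permutation. Intervals and floors of 3 counts cover counting error only, and molecules, not libraries, are their unit. For shares of cells, counts were rounded up per cell and each cell was thinned to 500 counts. Samples were grouped by GEO's labels.

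Alternatives were DESeq2 1.42.0, no filter, no TMM, each library left out, only the compared groups, a replicate block, sex, at least 50 cells, counts rounded up per cell, cells above 3 times the median count left out, cells with astrocyte transcripts left out and other pseudocounts; 4 were added after seeing the data. The members and lists were chosen with earlier results of these data known. Named were Mt1, Mt2, up to 3 called genes per list and comparison, Mtf1, Slc30a1, Mt3, and the 5 genes closest to each metallothionein (mean CPM of at least 20), of which 1 is not reported here. Promoters and gene models come from RefSeq GRCm38.p6 and GENCODE; both genes matched by symbol.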

Additional observations from a re-analysis of the deposited data

Results flagged for a closer look

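In 32 groups of 4 libraries, 4 values lay far from the other 3 of their group by Dixon's criterion, which chance meets in about 1 in 20 groups. The highest was 1190 CPM of Mt1 in endothelial cells of stroke day 14 replicate 3, where the other libraries held 734 to 796. In monocyte-derived cells Mt2 stood out at 55.6 CPM in stroke day 2 replicate 2 (others 12.6 to 14.8) and at 10.8 CPM in stroke day 14 replicate 2 (others 6.87 to 6.99). In microglia Mt2 stood out at 119 CPM in stroke day 2 replicate 4 (others 60.8 to 70.7), and without that library the rise against sham was still called.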

How the results depend on the processing

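Both rises of Mt2 in microglia kept direction and call under every alternative run. So did both falls of Mt2 in dendritic cells against sham under every alternative that gave a value; without DC7 it did not pass the filter. The day 14 fall of their Mt1 against sham lost its call without DC7 alone, and the fall of monocyte Mt1 between the times without Mo2 alone. Leaving out 1 library gave ranges of 0.89 to 1.44 for Mt1 in microglia at day 2, 1.16 to 1.76, -0.25 to 0.25 and -1.60 to -1.34 for Mt1 in monocyte-derived cells (MdC; day 2 against sham, day 14 against sham, day 14 against day 2), -0.59 to 0.29 for their Mt2 at day 14 against sham, -0.47 to 0.33 for endothelial Mt1 and 0.43 to 1.49 for endothelial Mt2 at day 2, and -2.27 to -1.72 for monocytes at day 14 against sham. For border-associated macrophages Mt1 gave -0.0715 to 0.46 at day 2 and -0.51 to 0.00736 at day 14 against sham. The ratio of Mt2 to Mt1 at day 14 against day 2 gave -0.44 to 0.0697 in microglia and -0.0434 to 0.56 in MdC.

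Rounding counts up per cell gave 0.69 for microglial Mt1 at day 2, 0.0843 for Mt2 of MdC at day 14 against sham and -0.0243 for Mt1 of border-associated macrophages at day 2. Without the filter Mt1 of MdC at day 14 against sham was 0.0639, and without TMM its day 2 change was 0.89. Its call was lost in both the latter fit and that of only libraries of higher mitochondrial share (1.27), where endothelial Mt1 at day 2 was 0.14 and microglial Mt2 at day 14 against day 2 was -1.53 (adjusted p 0.0174). Without Mo2 the monocyte changes were -1.25 and -1.09, and without DC7 dendritic Mt1 at day 2 was 0.40. A pseudocount of 10 gave 0.29 for B cells minus T cells. With 2 counts added, 6 log2 ratios reached an adjusted p of 0.0429 by exact permutation, a value that needs all 6 together: 1.62 and 1.34 in microglia, 1.08 and -0.67 in endothelial cells and -2.16 and -1.75 in MdC. The MdC values moved with the added counts and were -0.92 and -0.74 with 0.5 added. Sham MdC held 0 to 1.96 counts of Mt2 a library, and their median percent, 1.42, was below that at day 2 (2.31) and day 14 (2.80). The direction of the MdC ratio thus differs by measure and is uncertain. The cause of these changes was not tested.

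Replicate numbers did not pair the libraries (correlations of same-numbered deviations -0.37 to 0.64 in microglia). With the replicate block, Mt2 of MdC passed between the times (-1.39, adjusted p 0.0288), Mt2 of dendritic cells did so too (-1.99), and the block changed no other call of the pair.

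In aged brain, single omissions gave -0.64 to 0.86 for endothelial Mt1 after stroke and 0.33 to 1.97 for endothelial Mt2. In MdC after stroke they gave 1.18 to 3.44 for Mt1 and 1.46 to 9.67 for Mt2. For aged minus young sham they gave -0.27 to 0.13 and -6.89 to 1.26 (Mt1 and Mt2) in microglia and -1.21 to 1.04 and -6.10 to 2.10 in MdC. For aged minus young stroke in microglia they gave -0.59 to 0.11 and -0.19 to 1.29. For the difference of the stroke effects they gave -0.58 to 0.23 and -0.45 to 7.78 in microglia, -0.56 to 0.99 and -0.40 to 1.22 in endothelial cells and -0.30 to 1.95 for Mt1 in MdC. The values 9.67, -6.89, -6.10 and 7.78 come from fits whose aged sham arm is 1 library with no count of Mt2, so they are no measured fold. A lone library is assumed to vary like the others. With sex as a covariate microglial aged minus young sham was 0.27 and 0.49 and stroke 0.25 for Mt1; DESeq2 gave 0.12 for Mt2 in sham. Rounding up gave 0.22 for Mt1 in stroke and 0.26 for the difference of effects, which was 0.00296 without cells of high count.

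Counts of called genes moved by more than 1.5 times in these comparisons. In microglia they were 1544 at day 14 against sham (3425 without TMM) and 703 between the times (1157 without TMM, 1057 rounded up, 426 with only the compared groups, 418 without cells of high count). In endothelial cells they were 778 at day 2 (335 without cells of high count), 654 between the times (404 without the filter, 270 and 133) and 0 at day 14 against sham (11 at most). In MdC they were 542 (355 without TMM), 416 (259 with higher mitochondrial share) and 145 (386 with DESeq2, 469 with the block, 348 with mitochondrial share as a batch). In dendritic cells they were 44 (18 to 124), 67 (0 without DC7, 128 without the filter) and 39 (116 with DESeq2, 111 with the block), and in monocytes 17 (4 without Mo2, 97 without the filter) and 36 (7 and 128). Microglial calls at day 2 split 1588 higher and 1594 lower, and 1273 and 2118 without TMM, where the gene median was -0.22 in place of -0.05. Leaving out 1 library gave 791 to 2573 calls in microglia at day 14 against sham and 276 to 735 between the times, 320 to 991 and 324 to 523 in endothelial cells at day 2 and between the times, 284 to 481, 246 to 349 and 45 to 191 in MdC, 16 to 85, 15 to 66 and 0 to 31 in dendritic cells and 2 to 27 and 11 to 35 in monocytes; microglia at day 2 gave 2094 to 3120. MdC calls at day 2 split 457 and 85, and 180 and 175 without TMM. Few counts limit Mt2 in MdC, where sham held 43 to 99 cells a library, and Mt1 in neutrophils, with 5 counts over 5451 sham cells.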
